A study of Cricetulus griseus with 20 samples.

Results

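Dbp, Ciart and Rora are circadian clock genes, and their mRNA levels were followed in Chinese hamster (Cricetulus griseus) preadipocytes during adipogenesis with and without hypoxia. The members are the 3 mRNAs, of 10318 in the deposited table, whose identifier the study's supplementary tables of changed genes pair with 1 of these names: ENSCGRG00015016337 for Dbp, ENSCGRG00015023664 for Ciart and ENSCGRG00015018291 for Rora. All 3 passed the authors' filter on low values. Their differences between hypoxia and normoxia are what placed them in those tables, so these differences are given below as a description and without a test. The tests below concern the steps from day to day and the other clock genes.

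The cells were primary preadipocytes isolated from the inguinal white adipose tissue (iWAT) of female 6-week-old hamsters, whose tissue was pooled before digestion, then grown to confluence (D0) and induced with a cocktail of dexamethasone, insulin and IBMX. After 2 days this medium was exchanged for one with insulin alone. The 10 groups were normoxia (21% O2) and hypoxia (1% O2 for the 24 h before collection) on 5 days of differentiation (D0, D1, D3, D7, D11), each group holding 2 of the 20 libraries. The hypoxic groups at D1 and D3 therefore entered hypoxia at D0 and D2, the days on which the induction medium was added and replaced. The study states that medium was equilibrated to hypoxia before use. Whether the hypoxic groups of the other days, or their normoxic controls, also received fresh medium at that point is not stated. No genetic change is stated for any group, and every group from D1 on had received the same cocktail. RNA was sequenced after removal of ribosomal RNA. The values are relative abundances in TPM, scaled to transcript length and to the library's total, which do not keep the depth behind them. The listed mRNAs summed to between 27.9% and 45.8% of each library's total.

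The circadian clock is a feedback loop of transcription that runs in nearly every mammalian cell, fat cells included. CLOCK and BMAL1 activate the Per and Cry genes through E-box elements, and PER and CRY proteins then repress CLOCK and BMAL1. Dbp encodes a PAR bZIP factor that activates genes through D-box elements and is itself a direct, strongly rhythmic target of CLOCK and BMAL1. Ciart, also called Chrono, encodes a repressor of CLOCK and BMAL1 described in the mouse. Rora encodes the nuclear receptor RORα, which activates Bmal1 in a second loop that opposes REV-ERBα. In mouse and human cells RORα is also known to restrain inflammatory signalling, and the study listed the gene among its anti-inflammatory genes. Dexamethasone and changes of serum are commonly used to set the clocks of cultured cells to a common phase. Each group was collected at 1 time point, and the hour of collection and the hour of each medium change are not given in the sources used here. A change in level and a shift of phase cannot be told apart for any gene below.

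The labels were checked against known targets of the hypoxia-inducible factor (HIF), of which 14 of 18 listed had a name. Names come mainly from genes that the study called changed between oxygen levels in these same libraries. The counts therefore lean to changed genes, and only their direction is read as a check of the labels. At D0, D1 and D3, 13 of 14 rose in hypoxia and none fell (limma, adjusted p under 0.05), where 3.39%, 7.36% and 10.4% of all mRNAs rose. At D7 11 rose and none fell, where 9.97% of all mRNAs rose. At D11 5 of 14 rose (Adm, Ankrd37, Ddit4, P4ha2 and Vegfa), where 63.3% of all mRNAs rose, and 4 fell (Bnip3, Gapdh, P4ha1 and Pgk1), where 13.2% fell. Of the 14, 4 lay above the median of all mRNAs at D11. Adm, the peptide hormone adrenomedullin, was at 2.04 ± 0.266 TPM in the libraries labelled normoxia at D11 and at 8.21 ± 0.199 TPM in those labelled hypoxia (SD, n = 2). Gapdh was at 3749 ± 115 TPM in the libraries labelled normoxia at D11 and at 2088 ± 239 TPM in those labelled hypoxia (SD, n = 2). Some targets thus followed the labels at D11 and others went against them. From these mRNA levels alone, an exchange of the oxygen labels at D11 and a different response of these genes on that day cannot be told apart. Rankings and counts over all days include D11, and ranges and correlations are given with and without it. The 4 named adipocyte markers (Pparg, Fabp4, Cd36 and Lpl, of 8 listed) did not rise steadily in normoxia. They summed to between 157 and 160 TPM at D0 and to between 61.3 and 77.4 TPM at D1. The sum was 202 to 211 TPM at D3, 562 to 580 TPM at D7 and 456 to 556 TPM at D11. In bulk RNA, fewer cells of a type and less RNA per cell cannot be told apart. The 4 adipocyte markers did not move together between normoxia and hypoxia. At D7 Fabp4 was lower in hypoxia (421 ± 10.1 against 215 ± 36.6 TPM), as was Cd36 (69.2 ± 12.3 against 47.6 ± 13.5 TPM). Pparg was higher (74.2 ± 8.87 against 142 ± 15.4 TPM), and Lpl overlapped. At D11 Cd36 was higher in the libraries labelled hypoxia (6.78 ± 1.72 against 56.0 ± 5.32 TPM), as was Lpl (3.13 ± 0.201 against 10.4 ± 0.904 TPM). Pparg was lower (257 ± 51.7 against 170 ± 12.1 TPM), and Fabp4 overlapped (SD, n = 2 throughout). The 2 named preadipocyte markers of 6 listed, Pdgfra and Zfp521, fell in hypoxia at D7 and rose at D11. Their summed level was 20.9 to 23.0 TPM in normoxia and 10.1 to 12.9 TPM in hypoxia at D7, and 10.1 to 12.7 TPM in normoxia and 24.0 to 28.0 TPM in hypoxia at D11. Of markers of other cells, the endothelial Pecam1 did not exceed 9.03 TPM and the epithelial Epcam did not exceed 2.23 TPM in any library. Pecam1 was at 1.85 ± 0.0158 TPM in normoxia and 0.686 ± 0.00768 TPM in hypoxia at D7, and at 0.728 ± 0.0932 and 2.03 ± 0.131 TPM at D11 (SD, n = 2). No macrophage marker had a name in the tables. The part of these marker levels in the results below was not tested.

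Dbp had a low point at D1 and its highest levels late in differentiation. At D0 its level was 13.4 and 11.2 TPM in the normoxic libraries and 12.5 and 13.9 TPM in the hypoxic libraries. At D1 it was 1.44 and 1.20 TPM in normoxia and 1.41 and 1.79 TPM in hypoxia. The 2 oxygen groups overlapped on both of these days, and all 4 libraries of D1 were below every library of the other days. At D3 the level was 5.16 and 4.19 TPM in normoxia against 9.48 and 10.3 TPM in hypoxia. At D7 it was 8.26 and 7.84 TPM in normoxia against 34.5 and 39.9 TPM in hypoxia. From D3 on, both hypoxic libraries of each day were above both normoxic ones. At D11 the level was 19.2 and 19.5 TPM in normoxia and 34.6 TPM in each library labelled hypoxia. The ratio of mean TPM, hypoxia over normoxia, was thus 1.07 and 1.21 at D0 and D1, rose to 2.12 at D3 and 4.62 at D7, and was 1.79 at D11.

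Ciart differed between oxygen levels from D0 on. At D0 its level was 7.27 and 6.98 TPM in normoxia and 14.4 and 11.6 TPM in hypoxia. At D1 it was 1.06 and 1.55 TPM in normoxia and 6.65 and 8.46 TPM in hypoxia. The normoxic level at D1 was the lowest of the 10 groups, and the hypoxic libraries of that day overlapped normoxia at D0. At D3 Ciart was at 3.09 and 3.86 TPM in normoxia and at 14.4 and 14.7 TPM in hypoxia. At D7 it was at 5.05 and 4.50 TPM in normoxia and at 19.5 and 28.5 TPM in hypoxia, the widest pair of replicates of the 3 genes. On these 4 days both hypoxic libraries were above both normoxic ones, with ratios of mean TPM of 1.82, 5.78, 4.19 and 5.03. At D11 the order was the opposite, with 20.4 and 24.0 TPM in the libraries labelled normoxia and 15.3 and 16.4 TPM in those labelled hypoxia, a ratio of 0.712.

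Rora was the least expressed of the 3 genes in most groups and rose with differentiation. At D0 its level was 1.81 and 1.35 TPM in normoxia and 4.41 and 3.43 TPM in hypoxia. At D1 it was 1.24 and 1.16 TPM in normoxia and 3.46 and 3.35 TPM in hypoxia. At D3 it was 1.86 and 1.95 TPM in normoxia and 5.45 and 4.78 TPM in hypoxia. On these days each hypoxic library was above every normoxic one, with ratios of mean TPM of 2.48, 2.84 and 2.69. At D7 Rora was at 3.94 and 5.09 TPM in normoxia and at 7.93 and 8.01 TPM in hypoxia, a ratio of 1.77. At D11 it was at 8.14 and 10.2 TPM in normoxia and at 11.7 and 10.8 TPM in the libraries labelled hypoxia, a ratio of 1.22. The groups did not overlap on any day, and the ratio was smallest at D11.

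**Figure D1:**
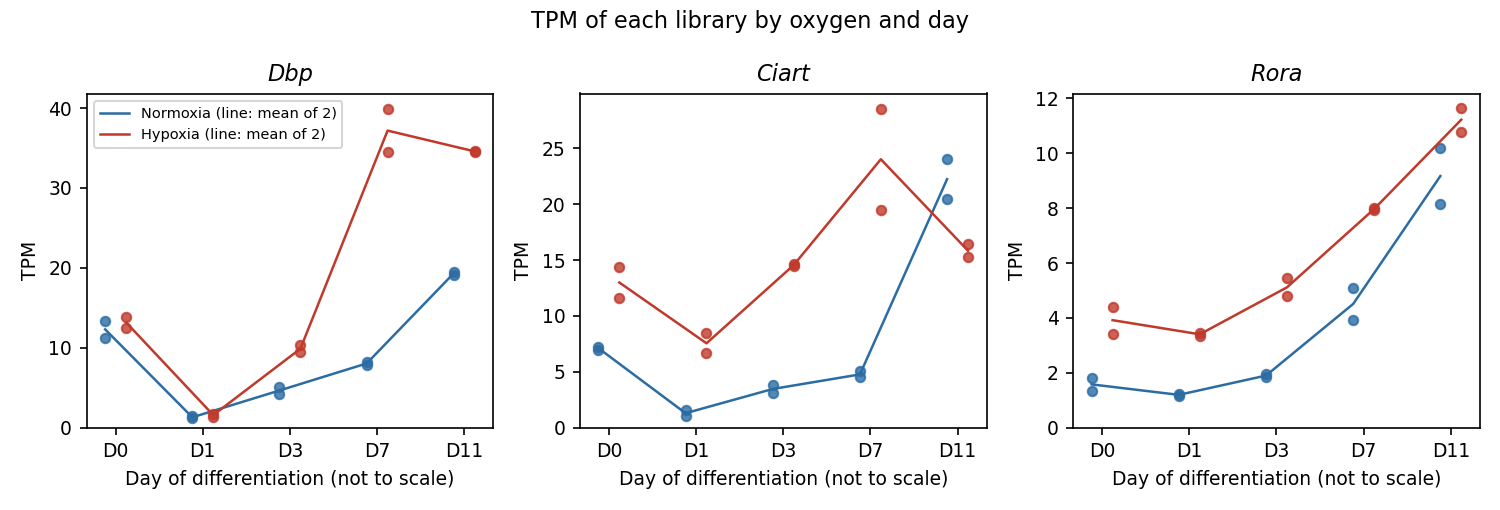
TPM (y axis, linear) of Dbp, Ciart and Rora in each of 20 libraries by day of differentiation (x axis); points are libraries, lines join the means of 2 libraries, and colour gives the oxygen level. Dbp and Ciart are lowest at D1 in normoxia (means of 1.32 and 1.31 TPM), and Ciart is the only gene of the 3 with hypoxia below normoxia at D11.

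Ranked by mean TPM over the 10 groups, the lowest group of each gene was normoxia at D1. The highest was hypoxia at D7 for Dbp (37.2 ± 3.83 TPM, SD, n = 2) and Ciart (24.0 ± 6.38 TPM), and hypoxia at D11 for Rora (11.2 ± 0.605 TPM). Of the 9 pairs of neighbours in this order, libraries overlapped in 3 for Dbp, in 2 for Ciart and in 3 for Rora. For Dbp these were the 2 oxygen levels at D1, the 2 at D0, and hypoxia at D11 with hypoxia at D7. For Ciart they were normoxia at D0 with hypoxia at D1, and normoxia at D11 with hypoxia at D7. For Rora they lay in a run of 4 groups at mid level: hypoxia at D1, hypoxia at D0, normoxia at D7 and hypoxia at D3.

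On the log2(TPM + 1) scale, hypoxia minus normoxia for Dbp was 0.10, 0.16, 0.95, 2.07 and 0.81 at D0, D1, D3, D7 and D11 (SE 0.12 each). For Ciart it was 0.78, 1.89, 1.80, 2.09 and -0.46 (SE 0.16), and for Rora 0.93, 1.00, 1.07, 0.71 and 0.27 (SE 0.13). Dbp thus differed by the least at D0 and D1 and by the most at D7, where its value was close to that of Ciart. Rora differed by a similar amount at D0, D1 and D3. The pseudocount of 1 understates changes of low levels, which applies most to Rora and to every gene at D1. The median over all 10318 mRNAs was -0.05, -0.09, -0.07 and -0.19 on the first 4 days and 0.51 at D11. Relative to that median, the D11 difference was 0.29 for Dbp, -0.98 for Ciart and -0.24 for Rora, so the direction for Rora at D11 depended on the scaling. For reference, the share of all mRNAs that rose in hypoxia was 3.39%, 7.36%, 10.4% and 9.97% on the first 4 days and 63.3% on the last. Since the study picked these genes on such contrasts, nothing is read from their place in those shares. The change from D7 to D11 in the hypoxia-minus-normoxia difference was -1.27 for Dbp, -2.55 for Ciart and -0.44 for Rora, where 62.6% of all mRNAs rose and 12.1% fell. For all 3 genes it is a description.

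**Figure D2:**
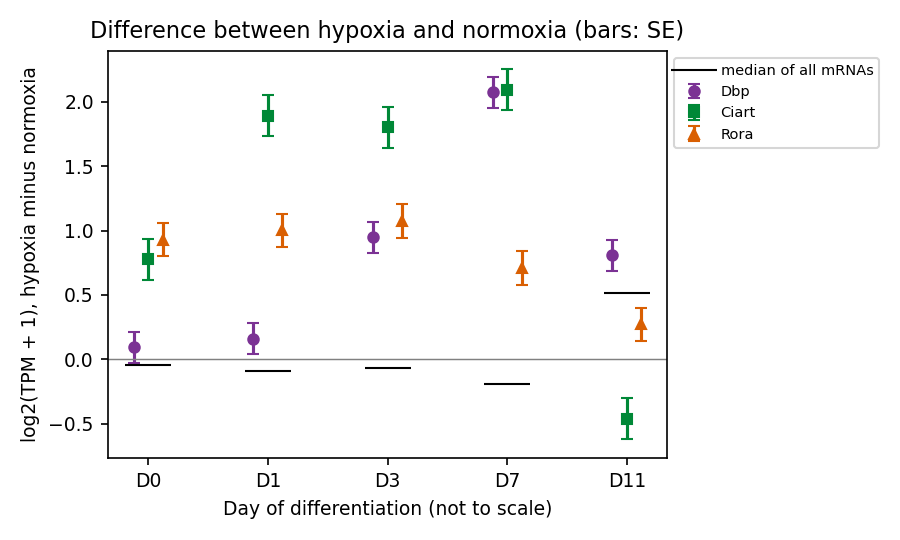
Hypoxia minus normoxia in log2(TPM + 1) (y axis) for Dbp, Ciart and Rora by day (x axis); bars are SE from the fit of all 20 libraries, and black dashes mark the median of all mRNAs. Ciart and Rora lie above that median from D0 to D7, Dbp reaches 2.07 at D7, and at D11 the median itself is at 0.51.

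Steps between successive days were tested within each oxygen level with limma, with Benjamini-Hochberg adjustment over all mRNAs of a step. The choice of the genes did not use these contrasts, although they share libraries with those it used. With 2 libraries against 2, an exact permutation test of a single gene cannot go below p = 0.333, so the test rests on a spread shared by all groups. Since the tissue was pooled, and since the labels do not say whether the libraries of a group came from separate cultures, the p-values reflect the spread between libraries and not between animals. In normoxia, 8 of the 12 steps of the 3 genes rose and 2 fell, and in hypoxia 7 rose and 3 fell. Depending on the step, 8.46% to 30.6% of all mRNAs rose and 13.7% to 34.8% fell in normoxia. In hypoxia 7.96% to 79.8% rose and 3.9% to 49.3% fell. These shares differ so much between steps that each step is set against its own share below.

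Induction was accompanied by a fall of Dbp and Ciart in normoxia. From D0 to D1, Dbp fell by 2.52 (adjusted p = 2.29e-11, limma) and Ciart fell by 1.82 (adjusted p = 6.08e-08) on the log2 scale. The step of Rora was -0.22 (adjusted p = 0.167). Thus 2 of 3 genes fell and none rose, against 34.8% and 8.46% of all mRNAs. In hypoxia Dbp fell by 2.45 (adjusted p = 3.01e-11) and Ciart fell by 0.71 (adjusted p = 0.00112), against 43.2% of all mRNAs that fell and 7.96% that rose, and the step of Rora was -0.15 (adjusted p = 0.338). The median step of all mRNAs was -0.19 in normoxia and -0.24 in hypoxia.

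Targets of the glucocorticoid receptor moved the other way at this step. Of 6 named (of 7 listed), 5 rose from D0 to D1 at both oxygen levels and none fell: Dusp1, Fkbp5, Per1, Sgk1 and Tsc22d3. Fkbp5, a co-chaperone of the receptor, was at 8.22 ± 0.231 TPM at D0 and at 42.1 ± 4.50 TPM at D1 in normoxia (SD, n = 2; log2 difference 2.22, adjusted p = 1.12e-08, limma). The part of these genes in the fall of Dbp and Ciart was not tested.

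After D1 all 3 genes rose. From D1 to D3 in normoxia, Dbp rose by 1.29 (adjusted p = 1.74e-07, limma), Ciart by 0.96 (adjusted p = 0.000188) and Rora by 0.40 (adjusted p = 0.0297), 3 of 3 against 10.8% of all mRNAs that rose and 13.7% that fell. In hypoxia the same step was 2.07 for Dbp (adjusted p = 2.57e-10), 0.87 for Ciart (adjusted p = 0.000384) and 0.47 for Rora (adjusted p = 0.00951), again 3 of 3, against 14.3% that rose and 16.5% that fell. The rise of Rora was no longer called in normoxia without any 1 of the 4 libraries of D1 and D3 (0.37 to 0.43), nor in hypoxia without replicate 2 of D1 or replicate 1 of D3 (0.39 to 0.55 over all omissions).

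From D3 to D7 Dbp rose by 0.68 (adjusted p = 0.000141) and Rora by 0.92 (adjusted p = 1.3e-05, limma) in normoxia, 2 of 3 against 12.7% of all mRNAs that rose and 32.7% that fell. The normoxic step of Ciart was 0.37 (adjusted p = 0.0633), and it passed without either hypoxic library of D7 (0.37 in both fits) and when libraries were centred on their medians (0.55). In hypoxia Dbp rose by 1.81 (adjusted p = 1.66e-09), Ciart by 0.66 (adjusted p = 0.00152) and Rora by 0.55 (adjusted p = 0.00119), 3 of 3 against 8.87% of all mRNAs that rose and 49.3% that fell. The median of all mRNAs fell by 0.29 over the same step. The hypoxic rise of Ciart was not called without replicate 2 of hypoxia at D7 (0.40).

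From D7 to D11 in normoxia all 3 genes rose, Dbp by 1.17 (adjusted p = 1.61e-07, limma), Ciart by 2.00 (adjusted p = 1.03e-08) and Rora by 0.88 (adjusted p = 1.07e-05), against 30.6% of all mRNAs that rose and 28.6% that fell. Over this step 11 of 14 HIF targets also rose in the libraries labelled normoxia and 1 (Vegfa) fell. This was not particular to the last step: in normoxia 11 of 14 rose from D1 to D3 and 13 from D3 to D7. The part of these targets in the steps of Dbp, Ciart and Rora was not tested. In hypoxia Ciart fell by 0.55 (adjusted p = 0.00369), against 3.9% of all mRNAs that fell, and Rora rose by 0.45 (adjusted p = 0.0037), against 79.8% that rose. The step of Dbp was -0.10 (adjusted p = 0.449). The median of all mRNAs rose by 0.72, and relative to it the steps were -0.82 for Dbp, -1.27 for Ciart and -0.28 for Rora. The fall of Ciart was not called without replicate 2 of hypoxia at D7 (-0.29). No step up to D7 changed its call when the 4 libraries of D11 were left out.

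**Figure D3:**
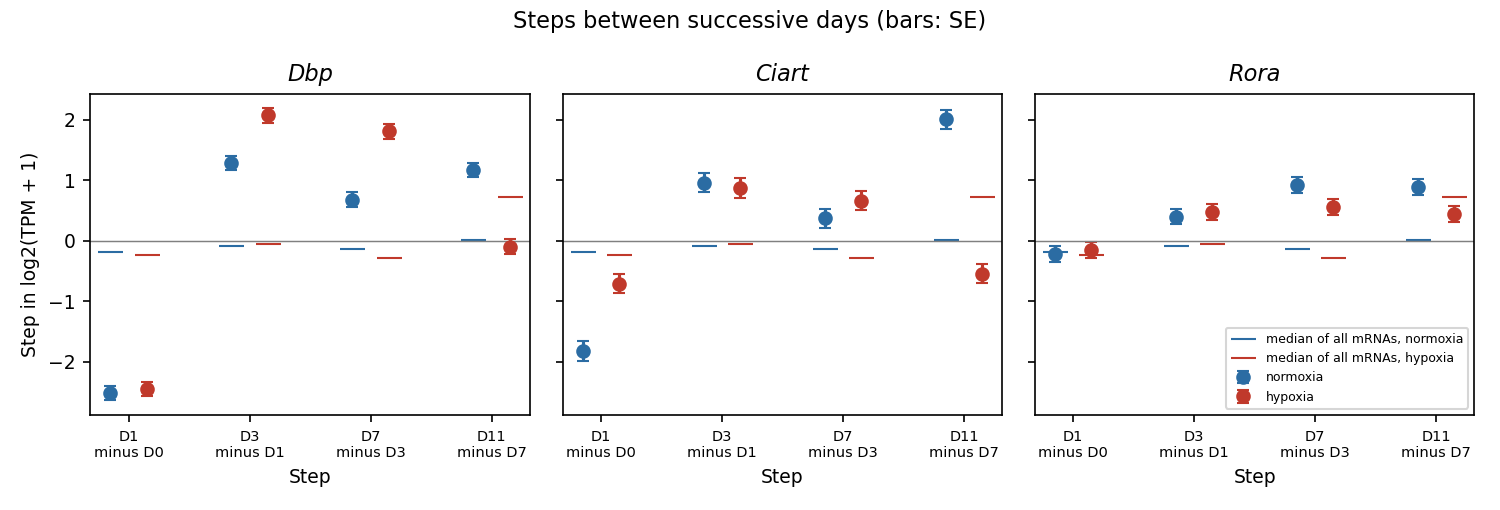
Steps between successive days in log2(TPM + 1) (y axis) for Dbp, Ciart and Rora in normoxia and hypoxia; points are fitted steps with SE bars and short lines are the median of all mRNAs at that step. Dbp has a similar fall at D1 at both oxygen levels (-2.52 and -2.45), whereas the fall of Ciart is -1.82 in normoxia and -0.71 in hypoxia.

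Across the 5 days in normoxia, the highest group mean of Dbp was 14.7 times the lowest, that of Ciart 17.0 times and that of Rora 7.63 times. On the log2 scale the range was 3.14 for Dbp, wider than that of 99.2% of all mRNAs, and 2.20 for Rora, wider than 96.6%. The range of Ciart was wider than that of 99.4%, and the median range of all mRNAs was 0.90. Without D11 the normoxic ranges of Dbp, Ciart and Rora exceeded those of 98.9%, 96.3% and 88.9% of all mRNAs. In hypoxia the range was 3.88 for Dbp, 1.53 for Ciart and 1.47 for Rora, and exceeded those of 99.7%, 82.4% and 79.5%. Without D11 the hypoxic ranges exceeded those of 99.9%, 90.1% and 68.1%. With D11 included, Ciart and Rora thus spanned less in hypoxia than in normoxia, and Dbp spanned more. The median absolute log2 difference between the replicates of a group was 0.146 for Dbp, 0.235 for Ciart and 0.129 for Rora, against 0.121 over all mRNAs. The widest for Ciart was 0.526, in hypoxia at D7.

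Of 32 other listed clock genes, 14 had a name in the tables and were compared between oxygen levels. Names come mainly from genes that the study called changed, so counts among the 14 lean to changed genes. Those tables rest on the oxygen contrast in these same libraries, so the p-values below set a difference against the spread between libraries and are not independent evidence that these genes respond to hypoxia. Arntl (Bmal1), Per2, Cry1, Nr1d1, Nr1d2, Tef and Hlf were not analysed here. In hypoxia 2 of the 14 rose and 1 fell at D0 (3.39% and 2.7% of all mRNAs), 4 rose and 2 fell at D1 (7.36% and 18.9%), and 4 rose and 2 fell at D3 (10.4% and 19.3%). At D7 8 rose and 2 fell (9.97% and 39.2%), and at D11 9 rose and 1 fell (63.3% and 13.2%). The counts of genes that fell were small, and on every day but D3, where 2 fell whichever library was left out, they changed without single libraries. None fell at D0 without replicate 1 of normoxia or replicate 2 of hypoxia, at D1 without replicate 1 of normoxia, at D7 without replicate 2 of hypoxia, or at D11 without replicate 2 of normoxia or either library labelled hypoxia. At D1 1 fell without any 1 of the other 3 libraries, and at D7 1 fell without replicate 2 of normoxia. The median of the 14, relative to that of all mRNAs, was 0.05, 0.14, 0.24, 0.77 and -0.03 from D0 to D11. Bhlhe40, Bhlhe41, Nampt and Siah2 are known to respond to hypoxia elsewhere. Without these 4, a count made after seeing the data, 0, 1, 1 and 4 genes rose at D0, D1, D3 and D7. Those that rose at D11 were then Cipc, Clock, Cry2, Per1, Ppargc1a and Rorb, where 63.3% of all mRNAs rose.

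Among activators, Clock was at 17.2 ± 0.951 TPM in normoxia and 12.9 ± 0.520 TPM in hypoxia at D7 (SD, n = 2; log2 -0.39, adjusted p = 0.0255, limma), a fall not called after centring on the median (-0.13). At D11 it was higher in the libraries labelled hypoxia, by 1.05 (adjusted p = 1.3e-06). Clock did not follow Dbp, Ciart and Rora, which lay above normoxia at D7.

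Among repressors, Bhlhe40 (DEC1), which competes at E-boxes, rose in hypoxia on every day, by 1.57, 2.23, 1.88, 1.92 and 0.55 at D0 to D11 (adjusted p of 0.0164 at D11 and at most 2.1e-05 before, limma). The D11 difference was -0.02 after centring. Bhlhe41 (DEC2) rose by 0.97, 1.10, 1.57 and 1.11 from D1 on (adjusted p at most 0.000819), and its D0 difference was 0.46 (adjusted p = 0.172). Per1 was at 0.530 ± 0.0107 TPM in normoxia and 2.61 ± 0.650 TPM in hypoxia at D7 (SD, n = 2; log2 1.23, adjusted p = 9.64e-08), the day on which Dbp differed most. Its differences at D0, D1 and D3 did not pass (-0.00, -0.14 and 0.20), but that at D3 passed after centring (0.29). Cry2 was below 1 TPM in every group but hypoxia at D11, where it was at 2.05 ± 0.0906 TPM, and it rose by 0.23 at D7 (adjusted p = 0.0397) and by 1.06 at D11. At D3 its rise passed only after centring (0.26) and after quantile normalization (0.18). Per3, at 15.3 to 22.5 TPM in all groups, passed on no day, with differences from -0.10 to 0.15. At D11 it passed as a fall after centring (-0.56) and after quantile normalization (-0.34).

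In the second loop, Rorb, a relative of Rora, was at or under 1.21 TPM in all groups and did not share the pattern of Rora: it fell by 0.31 at D1 and by 0.36 at D7 (adjusted p of 0.0221 and 0.00483, limma) and was higher by 0.81 at D11. None of the 3 was called after centring on the median (-0.21, -0.10 and 0.25). Nfil3 (E4BP4), which occupies the same D-box elements as DBP and represses them, rose by 0.52, 0.81 and 1.03 at D1, D3 and D7 (adjusted p at most 0.0019). Its differences at D0 and D11 were 0.33 and 0.14 and did not pass. The D0 difference passed after centring and after quantile normalization (0.36 in both), and the D11 difference passed as a fall after centring (-0.42). At D1, where Dbp fell in both oxygen levels, Nfil3 rose, from 17.5 ± 2.28 to 32.5 ± 0.341 TPM in normoxia.

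Of 9 listed regulators of clock proteins, 2 had a name. Siah2, a ubiquitin ligase that in human cells acts on REV-ERBα and is also known from the HIF pathway, rose by 0.92 at D7 (adjusted p = 5.45e-06, limma) and by 0.43 at D11, the latter -0.13 after centring. At D3 its difference of 0.29 did not pass, but did after centring (0.38) and after quantile normalization (0.36), and at D1 it passed after centring (0.27). Cipc, a binding partner and inhibitor of CLOCK, differed by -0.34 to -0.09 up to D7 with no pass and rose by 1.18 at D11 (adjusted p = 3.09e-08). After centring and after quantile normalization its D0 difference passed as a fall (-0.31 in both), and after quantile normalization its D7 difference passed as a rise (0.28).

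Among outputs, Nampt, the rate-limiting enzyme of NAD+ salvage and a known clock target, rose in hypoxia at D0, D1, D3 and D7 by 0.99, 1.08, 1.09 and 1.03 (adjusted p at most 5.24e-05, limma) and fell by 0.31 at D11 (adjusted p = 0.04), the latter not called after quantile normalization (-0.13). Its level at D11 was 207 ± 35.7 TPM in normoxia and 166 ± 3.79 TPM in hypoxia, so that, like Ciart, its mean was lower in the libraries labelled hypoxia at D11. Klf10, a Krüppel-like transcription factor under clock control, rose at D7 by 1.00 (adjusted p = 3.27e-06). On every day both libraries labelled hypoxia were above both normoxic ones. Its differences of 0.36, 0.32 and 0.18 at D0, D1 and D3 did not pass. They passed as rises after centring (0.395, 0.418 and 0.27) and after quantile normalization (0.404, 0.421 and 0.268). At D11 Klf10 passed as a fall in both scalings (-0.33 and -0.26). Ppargc1a, a coactivator of RORα and of mitochondrial genes, fell by 0.68 and 1.02 at D1 and D3 (adjusted p of 0.00587 and 0.000191) and rose by 2.01 at D11 (adjusted p = 4.05e-09). Noct, a phosphatase of NADP(H), fell by 0.52 at D0 and by 0.59 at D3 (adjusted p of 0.0202 and 0.00223) at levels of 0.553 to 2.06 TPM. The fall at D0 was not called with a pseudocount of 0.1 (-0.81).

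**Figure D4:**
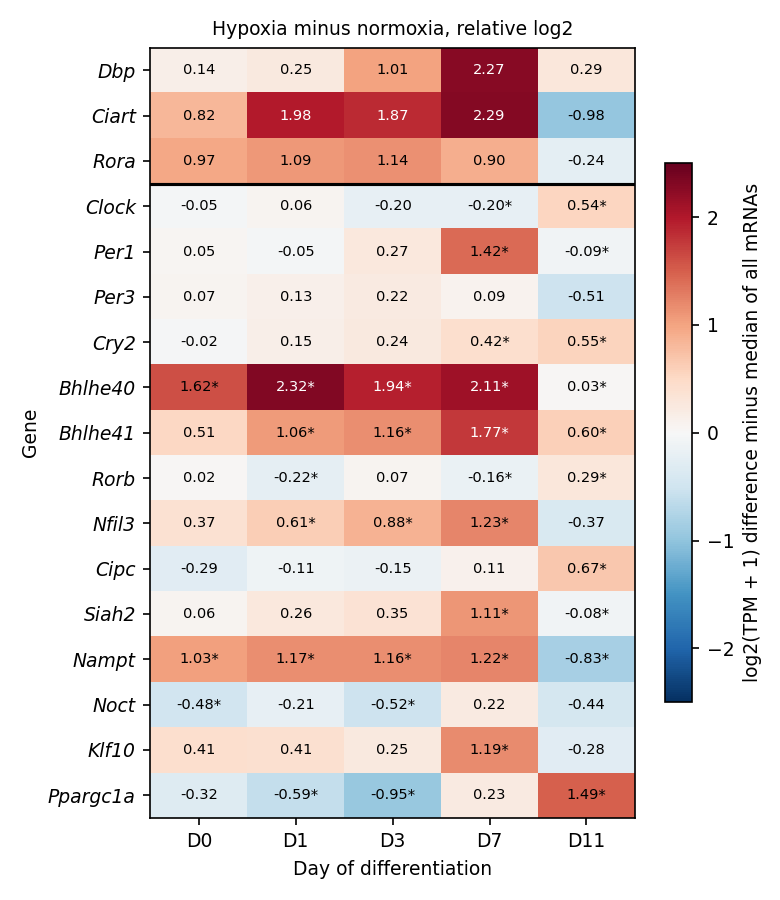
Hypoxia minus normoxia in log2(TPM + 1), minus the median of all mRNAs, for Dbp, Ciart and Rora (above the line) and 14 other clock genes (rows) by day (columns); stars mark adjusted p under 0.05 before the median is taken off, and the 3 genes above the line carry no test. Ciart, Bhlhe40 and Nampt are positive from D0 to D7 and Ciart and Nampt are negative at D11 (-0.98 and -0.83).

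The likeness of patterns was measured by Pearson's r over the 10 group means of log2(TPM + 1), against 2778 named mRNAs with at least 5 TPM in some group. These points share libraries and the scaling of TPM, and r is a description. Names come mainly from genes that the study called changed between oxygen levels in these libraries. The candidates therefore lean to such genes, as do Dbp, Ciart and Rora, and a HIF target among the genes most like them is not independent evidence. The genes most like Dbp were Ptges3 (r = 0.958), an HSP90 co-chaperone, Tifa (0.946), an adaptor of TRAF signalling, and Atf3 (0.946), a stress-induced bZIP factor. Those most like Ciart were Tpd52 (0.946), Nampt (0.945) and Rassf7 (0.943), and those most like Rora were Rsbn1 (0.983), Bmt2 (0.981) and Ticam1 (0.980), an adaptor of Toll-like receptors. A high r does not mean equal size or direction on every day. Ptges3 spanned 102 to 220 TPM, and Dbp 1.32 to 37.2 TPM. At D11 Ptges3 (185 TPM in normoxia, 176 TPM in hypoxia) and Atf3 (22.1 and 16.3 TPM) were lower in hypoxia, unlike Dbp. Rassf7 (4.09 and 5.25 TPM) was higher there, unlike Ciart. The other genes named so far had the direction of their member at D11. Over the 8 groups without D11, Ptges3 and Atf3 were still among the 3 most like Dbp (0.975 and 0.965), and Tpd52 and Rassf7 among those most like Ciart (0.963 and 0.956). For Rora the 3 were then Rlf (0.991), Eno2 (0.988) and Ankrd37 (0.984), of which Ankrd37 and Eno2 are known HIF targets. Among the 3 genes themselves, r was 0.846 between Ciart and Rora, 0.819 between Dbp and Ciart and 0.763 between Dbp and Rora (0.833, 0.794 and 0.656 without D11). With Clock, r was -0.329 for Dbp, -0.466 for Ciart and -0.635 for Rora (-0.270, -0.305 and -0.692 without D11).

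The study's tables list 1 long non-coding RNA (lncRNA), G12062, within 100 kb of Dbp. It was listed because it changed in hypoxia, so its differences are a description. At D1 G12062 was at 3.64 and 3.24 TPM in normoxia and at 2.43 and 1.12 TPM in hypoxia. At D3 it was at 4.31 and 4.22 TPM in normoxia and at 3.02 and 2.04 TPM in hypoxia. At D7 it was at 4.09 TPM in both normoxic libraries and at 1.17 and 1.21 TPM in hypoxia. On these 3 days both hypoxic libraries were below both normoxic ones, whereas Dbp was higher in hypoxia at D3 and D7. At D0 the groups overlapped, with 5.20 and 4.54 TPM in normoxia and 4.92 and 5.17 TPM in hypoxia. At D11 G12062 was at 2.28 and 2.48 TPM in normoxia and at 4.53 and 4.26 TPM in the libraries labelled hypoxia. Hypoxia minus normoxia in log2(TPM + 0.1) was -1.70 at D7 and 0.86 at D11, and the medians of all 4295 lncRNAs were -0.61 and 1.01.

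**Figure D5:**
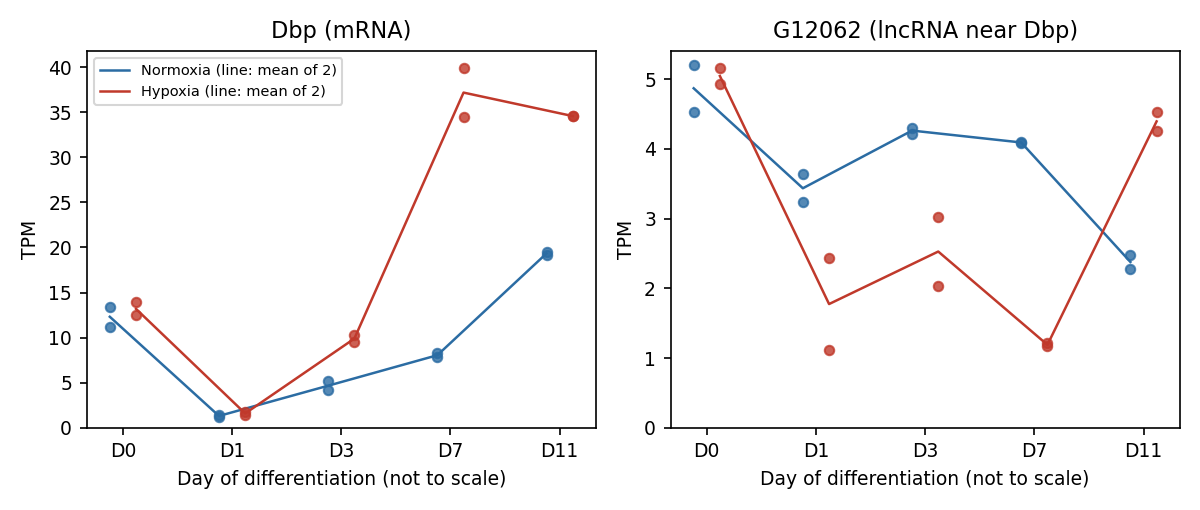
TPM (y axes, linear, different scales) of Dbp and of the lncRNA G12062 in each library by day; points are libraries, lines join the means of 2 libraries and colour gives the oxygen level. At D7 Dbp is at 34.5 and 39.9 TPM in hypoxia, where G12062 is at 1.17 and 1.21 TPM.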

How the data were processed

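Ribosome-depleted RNA of 20 libraries was processed by the authors, whose notes name CASAVA 1.8.2, STAR 2.6.0c and kallisto 0.44.0, with the CriGri-PICR assembly. The deposited values are TPM per mRNA and per lncRNA, and the authors kept mRNAs above 1 TPM in both replicates of some group. Counts were not used here, so log2(TPM + 1) was fitted with limma 3.58.1 in R 4.3.3: 1 mean for each of 10 groups, 10 residual degrees of freedom, moderated variances with a trend, and Benjamini-Hochberg adjustment over 10318 mRNAs per contrast. The study's own test, made on counts, was not used. Rose or fell means an adjusted p under 0.05. Gene names for 3853 mRNAs came from the study's supplementary tables, from which no value was taken. The genes named are Dbp, Ciart and Rora, every named gene of a clock list, glucocorticoid and HIF targets, the 3 mRNAs most like each of the 3 genes, and the lncRNA near Dbp. These genes and lists were chosen with earlier results of these data known. Same-numbered libraries did not deviate together, with correlations from -0.13 to 0.28, and were not treated as pairs. The fit was tested on simulated data. Alternatives were another pseudocount, a filter at 5 TPM, median centring, quantile normalization, no variance trend, a replicate block, and omission of each library or of D11. Sequences and coordinates were not used here.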

Additional observations from a re-analysis of the deposited data

Results flagged for a closer look

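The hypoxia-minus-normoxia difference was not the same at D11 as at D7 for 11 of 14 other clock genes (interaction contrast, limma, adjusted p under 0.05, on log2(TPM + 1)). Of the 14, 5 rose and 6 fell, where 62.6% of all mRNAs rose and 12.1% fell. Most mRNAs were thus called in this contrast, and the count of 11 is not particular to clock genes. The difference was larger at D11 for Clock (1.45), Cry2 (0.84), Rorb (1.17), Cipc (1.27) and Ppargc1a (1.97). It was smaller at D11 for Per1 (-0.80), Bhlhe40 (-1.37), Nfil3 (-0.89), Siah2 (-0.48), Nampt (-1.34) and Klf10 (-0.76). The median of all mRNAs was 0.70 for this contrast. After centring on the median the interaction was 0.016 for Cry2 and 0.34 for Rorb, neither called, and after quantile normalization it was 0.17 for Cipc, not called, and -0.23 for Cry2. Bhlhe41, not called above, was called after centring (-1.28) and after quantile normalization (-1.003). The names of these genes come mainly from the study's own calls on these libraries, so the tests are not independent evidence.

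Ciart was higher in both hypoxic libraries at D7 and lower in both at D11, with ratios of mean TPM of 5.03 and 0.712. The lncRNA G12062 went the opposite way, with ratios of 0.291 at D7 and 1.85 at D11. The median of all 4295 lncRNAs had the same signs, at -0.61 at D7 and 1.01 at D11 in log2(TPM + 0.1). The differences between days of Ciart and of G12062 were not tested.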

How the results depend on the processing

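With 2 libraries a group the precision is limited, and the depth behind TPM is unknown, so low levels such as Per1, Cry2, Rorb and Noct are the least certain. A replicate block, which the numbers do not justify, a fit without the variance trend and a fit without D11 kept every value's direction and call. With a pseudocount of 0.1, hypoxia minus normoxia was 1.26, 1.43 and 1.38 for Rora at D0, D1 and D3, 2.46 and 2.04 for Ciart at D1 and D3, and 2.19 and 0.84 for Dbp at D7 and D11, and 0 other clock genes fell at D0. With only mRNAs reaching 5 TPM, 0, 1, 1 and 1 other clock genes fell at D0, D1, D3 and D7, and 3 rose in the interaction, since fewer genes were tested. After median centring the differences were 1.10, 1.16, 0.97 and -0.29 for Rora at D1, D3, D7 and D11, 2.33 and 0.25 for Dbp at D7 and D11, and -1.02 for Ciart at D11. After quantile normalization they were 0.97 and -0.27 for Rora at D7 and D11, 0.48 for Dbp and -0.84 for Ciart at D11. The normoxic step of Ciart from D3 to D7 then passed (0.55 centred, 0.54 quantile), as did a hypoxic fall of Dbp from D7 to D11 (-0.90 and -0.65), and that of Rora turned to -0.35 and -0.33, so that 5 hypoxic steps fell in either scaling.

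Among other clock genes, centring gave 4 that rose and 2 that fell at D0, 1 that fell at D1, 8 that rose at D3, 0 that fell at D7, 5 and 5 at D11, and 3 that rose in the interaction. Quantile normalization gave 4 and 2 at D0, 7 that rose at D3, 1 that fell at D7, 4 that fell at D11, and 3 that rose in the interaction. Of HIF targets at D11, 1 rose and 8 fell after centring, and 2 fell after quantile normalization. At D11 the centred and quantile values turned for Per1 (-0.13, -0.31), Per3 (-0.56, -0.34), Siah2 (-0.13, -0.12), Noct (-0.49, -0.55) and Klf10 (-0.33, -0.26), and the centred ones for Bhlhe40 (-0.016) and Nfil3 (-0.42). Of these, Per3, Noct and Klf10 were called as falls in both scalings, Per1 by quantiles only and Nfil3 when centred. Siah2 and Bhlhe40 were not called. The interaction turned for Noct (-0.77, -0.93), for Per3 when centred (-0.71) and for Cry2 by quantiles (-0.23), each of them called. Cipc at D7 was 0.28 by quantiles, also called. Without 4 known targets of hypoxia, chosen after seeing the data, 0, 1, 1 and 4 rose at D0, D1, D3 and D7, 0 fell at D11 and 3 fell in the interaction. The cause of these shifts was not tested.

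Leaving out 1 library at a time, where a lone library is assumed to vary like the other groups, gave -0.81 to -0.29 for the hypoxic step of Ciart from D7 to D11, 0.40 to 0.93 for that from D3 to D7, and 0.25 to 0.50 for its normoxic step from D3 to D7. It gave 0.39 to 0.55 and 0.37 to 0.43 for the hypoxic and normoxic steps of Rora from D1 to D3. Of other clock genes, 0 to 1 fell at D0, 0 to 2 at D1, 0 to 2 at D7 and 0 to 1 at D11.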
